A study of Mus musculus with 6 samples.

Results

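In RNA sequencing of 6 mouse left ventricles, 443 of the 43234 long non-coding RNA (lncRNA) transcripts in the deposited table read as if they were switched on in some libraries and off in others. They were found by scaling every count to the mean library total of the gene table and keeping transcripts whose highest library reached 50 or more. In each library a transcript had to lie above 1/5 of its own maximum, called high here, or below 1/20 of it, called low, and both states had to occur. It also had to overlap a gene, but none of the 200 genes with the highest mean FPKM (a count divided by length and library total). Of 8738 transcripts that reached the maximum, 537 switched in this sense, 451 of these overlapped a gene, and 443 remained. The scaled counts of the transcripts themselves chose them, so their spread over libraries is a description and was not tested.

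All libraries came from the left ventricle of wild-type male C57BL/6 mice, 8 weeks old per the labels. The 3 libraries labelled TAC are from mice with transverse aortic constriction, a ligature around the aortic arch that makes the left ventricle pump against raised pressure. Another 3, labelled Sham, are from mice operated on in the same way without the ligature. Tissue was taken 6 weeks after surgery. No label says that each library is 1 separate mouse, so the p-values rest on the spread among the libraries, which may be technical. Gene counts summed to 17399510 to 28401399 per library and lncRNA counts to 1547100 to 2397057. All 10 cardiomyocyte markers were expressed, with a summed FPKM of 13484 to 18477 in the libraries labelled TAC and 11188 to 14409 in those labelled Sham. Nppa, which encodes atrial natriuretic peptide and normally rises in an overloaded ventricle, goes against the labels: its FPKM under the label TAC was 103, 72.7 and 109, and under the label Sham 904, 2183 and 728. In edgeR the log2 difference, TAC minus Sham, was -3.70 ± 0.45 (SE), with an adjusted p of 0.0222. The groups are therefore called by their labels throughout.

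A lncRNA is transcribed like a messenger RNA but is not known to encode a protein. Some, such as Kcnq1ot1 and Airn, silence neighbouring genes in imprinted clusters, and others serve as precursors from which small regulatory RNAs are cut. Many catalogued lncRNAs lie inside the exons, introns or 3′ ends of protein-coding genes, where short reads from the gene and from the lncRNA fall on the same bases. Values below are scaled counts unless another unit is named, and the libraries are always given in the order TAC 1, 2, 3 and Sham 1, 2, 3.

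The transcripts are mostly catalogue entries: 387 carry a NONCODE identifier, 53 an Ensembl identifier and 3 an identifier given by a transcript assembler. In 323 of them (72.9%) the length equals the genomic span, which means that they have no intron. From RefSeq (GRCm38.p6), 30 mature microRNAs (miRNAs) lie within the bounds of 7 switching transcripts. The Mir17hg transcript ENSMUST00000134140, at chr14:115042879-115046727, is the precursor of the miR-17-92 cluster. The 6 sequences below are shown because they are main products of that switching precursor, and they are grouped by their seed, bases 2 to 8, which is in capitals and pairs with target RNAs.
miR-17-5p: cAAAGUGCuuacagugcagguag
miR-20a-5p: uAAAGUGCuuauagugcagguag
miR-18a-5p: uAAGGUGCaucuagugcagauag
miR-19a-3p: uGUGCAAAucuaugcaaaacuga
miR-19b-3p: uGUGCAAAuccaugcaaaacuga
miR-92a-3p: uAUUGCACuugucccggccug
The first pair share the seed AAAGUGC, and miR-19a-3p and miR-19b-3p share GUGCAAA. On the X chromosome, NONMMUT072467.2 at chrX:53053112-53057190 spans the minus-strand genes of miR-351, miR-503 and miR-322, and the deposited table gives no strand for the transcript. The seeds of miR-322-5p and miR-503-5p, shown next, both begin with AGCAGC.
miR-322-5p: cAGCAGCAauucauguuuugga
miR-503-5p: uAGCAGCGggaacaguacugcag
The table counts the transcripts that span these miRNAs, not the mature miRNAs.

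Counts of the Mir17hg transcript were 67.4, 68.98 and 0 under the label TAC and 0, 0 and 0 under Sham. It was on in 2 libraries labelled TAC and listed at 0 in the other 4. The Mir17hg gene row in the gene table did not go off with it: it held 67.4, 68.98 and 108 under the label TAC and 44.4, 70.5 and 94.3 under Sham, and in TAC 1 and TAC 2 it equalled the transcript. NONMMUT072467.2 read 59.5, 0 and 0 under the label TAC and 63.96, 58.5 and 0 under Sham, so it was on in 1 library labelled TAC and 2 labelled Sham.

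Promoter sequence is shown for 3 genes with a switching transcript that has an end at the RefSeq start. Each window holds the 250 bases before the start in lower case and the first 50 transcribed bases in capitals, 5′ to 3′ on the strand of the gene, in GRCm38.p6. Kcnq1ot1 (chr7:143296498-143296797, minus strand) has 1 switching transcript that ends 2 bases from its start and a second one that runs across it. Chaer1 (chr5:77140256-77140555, minus strand) is the cardiac hypertrophy associated lncRNA named Gm42757 in the deposited table. Jpx (chrX:103493308-103493607, plus strand), an activator of Xist in the X-inactivation centre, has 2 switching transcripts that begin within 1 base of each other at the same start.
Kcnq1ot1: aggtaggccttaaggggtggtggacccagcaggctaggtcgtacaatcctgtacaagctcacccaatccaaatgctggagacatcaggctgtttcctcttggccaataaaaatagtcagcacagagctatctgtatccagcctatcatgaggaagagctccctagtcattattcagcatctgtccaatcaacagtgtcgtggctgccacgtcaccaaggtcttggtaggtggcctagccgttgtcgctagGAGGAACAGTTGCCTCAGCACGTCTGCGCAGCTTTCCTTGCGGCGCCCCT
Chaer1: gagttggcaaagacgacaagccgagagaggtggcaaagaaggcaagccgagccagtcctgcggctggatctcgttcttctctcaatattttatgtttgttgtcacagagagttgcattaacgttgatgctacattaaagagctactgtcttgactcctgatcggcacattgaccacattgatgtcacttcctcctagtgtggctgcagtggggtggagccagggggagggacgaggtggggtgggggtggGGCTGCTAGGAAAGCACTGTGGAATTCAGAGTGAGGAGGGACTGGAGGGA
Jpx: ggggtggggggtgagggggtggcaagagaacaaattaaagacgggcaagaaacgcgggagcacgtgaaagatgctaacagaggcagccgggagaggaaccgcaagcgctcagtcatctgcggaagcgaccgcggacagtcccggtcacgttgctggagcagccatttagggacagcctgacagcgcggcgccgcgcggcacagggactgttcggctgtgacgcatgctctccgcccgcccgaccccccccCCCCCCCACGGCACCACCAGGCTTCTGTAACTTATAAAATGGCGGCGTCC
The windows hold 9, 8 and 27 CG pairs, against a median of 7 over 32817 RefSeq windows of the same length. CCAAT, read on both strands, occurs in the Kcnq1ot1 window and in 37.4% of all windows. TATAAA, read likewise, occurs in the Jpx window and in 13.6% of all. In the Jpx window it lies in the capitals, after the start and not before it. The 2 Jpx transcripts share this start and yet were never on together, as described below.

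Low states were spread over all libraries. Between 175 transcripts (39.5%, in Sham 2) and 196 (44.2%, in TAC 3) were low in a given library, with 577 low states over the 3 libraries labelled TAC and 550 over the 3 labelled Sham. A single low library was the most frequent form: 164 transcripts were high in 5 libraries, 76 in 4, 75 in 3, 54 in 2 and 74 in 1. All 62 possible mixed patterns of high and low over 6 libraries occurred. Of the 1127 low values, 276 (24.5%) were exact zeros and 718 (63.7%) were at most 3 raw counts, and the median low value was 2.15 scaled counts. By counting error alone, a count of 0 allows up to 3. The highest library reached 50.5 to 4510.1 scaled counts with a median of 165. At the edge of the rule, Rmst, 4632428C04Rik and Gm17435 hosted transcripts with a maximum of 50.5, and those in 2500004C02Rik and Gm16008 at 49.6 and in A930015D03Rik at 49.5 fell outside. The low values nearest the limit were 4.98%, 4.98% and 4.96% of the maximum inside (Galnt10, Cux1, Ubash3b) and 5.005%, 5.03% and 5.03% outside (RP24-74B24.4, Dcp2, Mid1). For the high limit they were 20.1%, 20.3% and 20.6% inside (Ube2j2, Usp42, 5930430L01Rik) and 19.6%, 19.6% and 19.2% outside (Prdm11, Scara5, Gm30382).

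The transcript with the highest count, NONMMUT034295.2 at chr19:27250083-27254220, is unspliced and ends 11 bases before the 3′ end of Vldlr, the receptor that takes up triglyceride-rich lipoproteins. It read 3901, 4510.1 and 12.9 under the label TAC and 3636, 75.01 and 3621 under Sham. Both states are plain in these values, with TAC 3 and Sham 2 low and the other 4 libraries high. The Vldlr gene row read 9166, 10327 and 17830.4 under the label TAC and 8777, 8214 and 8636 under Sham, highest in TAC 3, the library in which the transcript was lowest. A second unspliced transcript of the locus, NONMMUT034294.2, overlaps the first by 806 bases and had the same states, 301, 296 and 3.23 under the label TAC and 256, 3.75 and 269 under Sham. Gene counts did not differ between the labels past the threshold (log2 difference 0.60 ± 0.23 SE, adjusted p = 0.197, edgeR).

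Klhl24, which encodes an adaptor of a cullin ubiquitin ligase, also held a pair of switching transcripts. NONMMUT025808.2 at chr16:20124175-20127583 read 2579.6, 2834 and 4197 under the label TAC and 1657, 1109 and 7.35 under Sham, and NONMMUT025804.2, which shares 1469 bases with it, read 1238, 1222 and 1891 under the label TAC and 559, 1286 and 13.5 under Sham. Both were low in Sham 3 alone. The gene row ranged over 7355 to 12988 and stood at 8411 in Sham 3, inside the range of the other libraries.

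Kcnq1ot1 is the imprinted antisense RNA of the Kcnq1 potassium channel locus. Its unspliced transcript ENSMUST00000185789, 84395 bases long at chr7:143212155-143296549, read 0, 3478 and 0 under the label TAC and 3569, 2211 and 0 under Sham. The 3 libraries at exactly 0 and the 3 high ones both include each label. The Kcnq1ot1 gene row was never low, at 2659, 3481 and 6132 under the label TAC and 3569, 3489 and 3945 under Sham. Subtracting the transcript from the gene row left 2659, 3.18 and 6132 under the label TAC and 0, 1277 and 3945 under Sham. In Sham 1 the gene row and the transcript were the same number, and in the libraries where the transcript was 0 the gene row still held 2659, 6132 and 3945. Counts grow with length, and per kilobase this transcript was low, with a highest FPKM of 1.95 against 50.01 for the Vldlr transcript and 108 for that in Ptrf.

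NONMMUT012038.2 lies 7 bases from the 3′ end of Ptrf, the cavin that coats caveolae, and was on in 1 library of each label, at 5.95, 2655 and 6.45 under the label TAC and 2823, 5.25 and 7.35 under Sham. The Ptrf gene row varied only 1.33-fold. In Lrtm1, which encodes a leucine-rich repeat membrane protein, NONMMUT020163.2 was on in Sham 3 alone, at 41.6, 42.4 and 62.4 under the label TAC and 47.5, 37.5 and 2846 under Sham. Its gene row was lowest in that library, and ranged over 6236 to 12662.

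Among the other 7 genes with a transcript of high count and a low library, the off state fell in different libraries. Lrrc2 (NONMMUT071092.2) was low in Sham 3 at 3.67 and at least 1469.8 elsewhere. Rhobtb1 and Il6st, which encodes the gp130 subunit shared by interleukin-6 receptors, were low in Sham 2, at 3.75 and 3.0005, and at least 1209 and 1368 elsewhere. Mical2, whose product oxidises actin, was low in TAC 1 (NONMMUT063252.2, 9.91 against 653 to 2132), and Pkia, an inhibitor of protein kinase A, in TAC 3 (NONMMUT042024.2, 5.38 against 1536 to 1919). Trabd2b, a protease of Wnt proteins, was low in TAC 2 and Sham 3 at 9.55 and 11.02. None of these 6 gene rows varied more than 2.56-fold over the libraries. Gm20634 was the exception among the 12: transcript ENSMUST00000090779, which also spans histone genes of the Hist2 cluster, read 888, 872 and 1712 under the label TAC and 13.4, 1036 and 1169 under Sham, and its own gene row followed it to 14.4 in Sham 1.

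**Figure D1:**
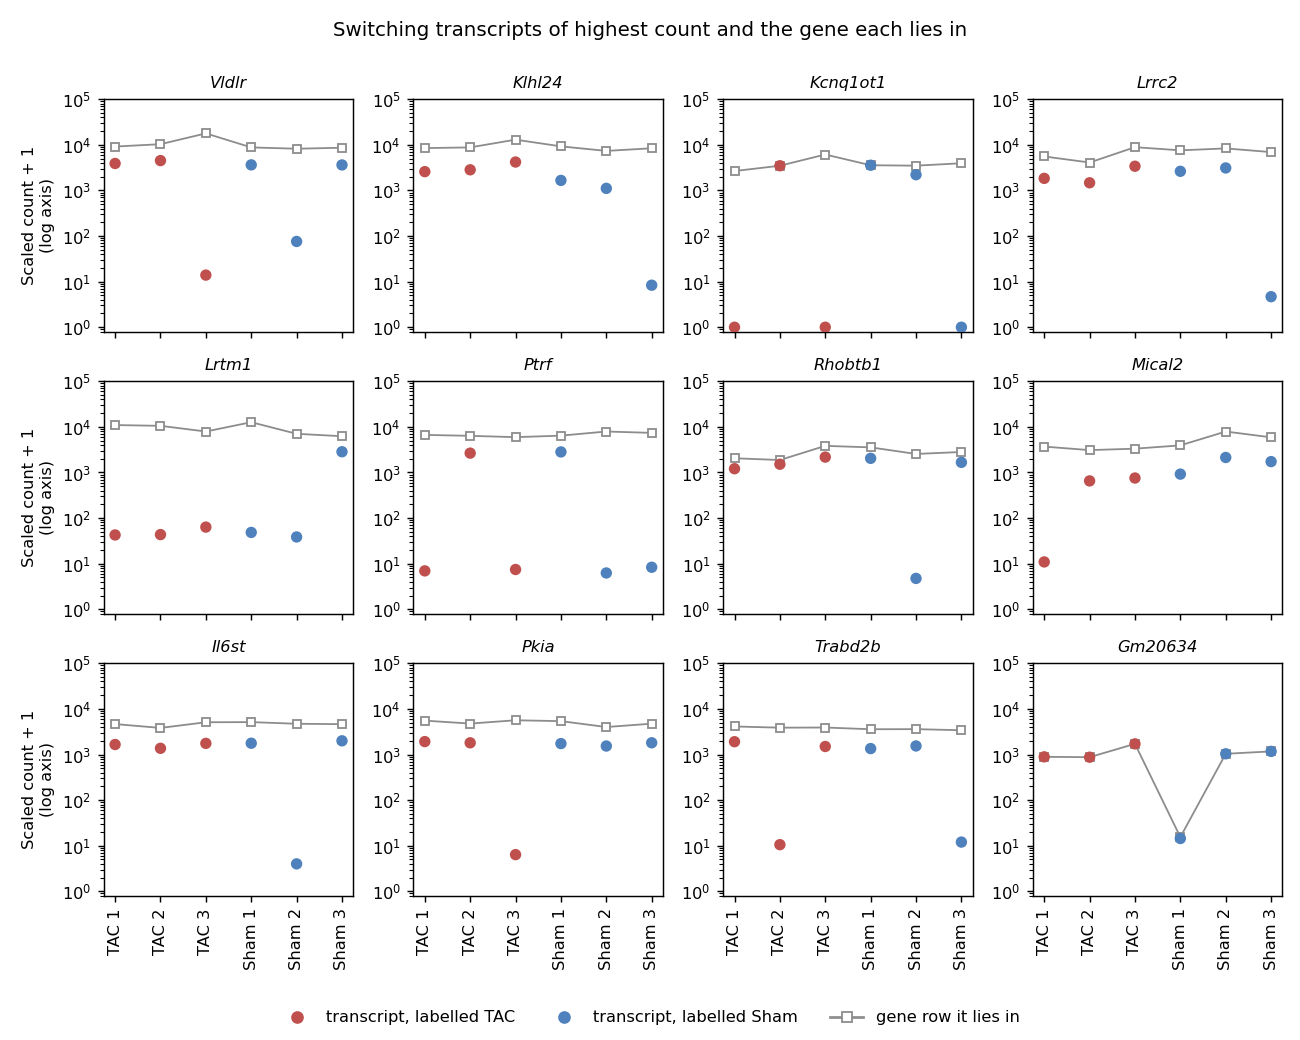
The 12 switching transcripts of highest count, at most 1 per gene; each panel gives the scaled count plus 1 on a log axis (y) for the 6 libraries (x), with the transcript as filled points coloured by label and the count of the gene it lies in as open squares joined by a grey line to guide the eye. Transcript points fall to 75.01 or less in their low libraries while the gene squares stay at 1874 or more, apart from Gm20634, whose gene row drops to 14.4 with its transcript.

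Position within the gene was not used to choose the transcripts, and its shares are given without a test. RefSeq gave a strand for the main gene, the one overlapped over the most bases, of 334 switching transcripts and of 4879 of the 6352 transcripts that passed the same overlap rules but were high in all 6 libraries. The centre of the transcript lay in the last 10% of its gene for 187 switching transcripts (56.0%) and for 635 of the steady ones (13.0%). The excess lay in the unspliced switching transcripts, with 181 of 255 (71.0%), while the spliced ones had 6 of 79 (7.59%). In 142 of the 334 switching transcripts (42.5%) the transcript ended within 50 bases of the 3′ end of the gene, against 292 of the steady ones (5.98%). The edge of a transcript on the 5′ side of its gene was within 50 bases of a RefSeq start in 34 (10.2%), against 218 (4.47%). Here the spliced switching transcripts were more frequent, with 23 of 79 (29.1%), while the unspliced ones had 11 of 255 (4.31%). Of the 142 at the 3′ end, 122 were unspliced, 125 lay in a protein-coding gene and 103 lay in a gene whose row varied less than 2-fold. Another limit is that 14 of them are catalogued as transcripts of a gene that they overlap. Their median length was 1880 bases and their median share of the gene's count, in the library where the transcript was highest, was 31.0%. The deposited rows carry no strand, so reads of a gene's last exon and of a lncRNA over it cannot be told apart in these counts.

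**Figure D2:**
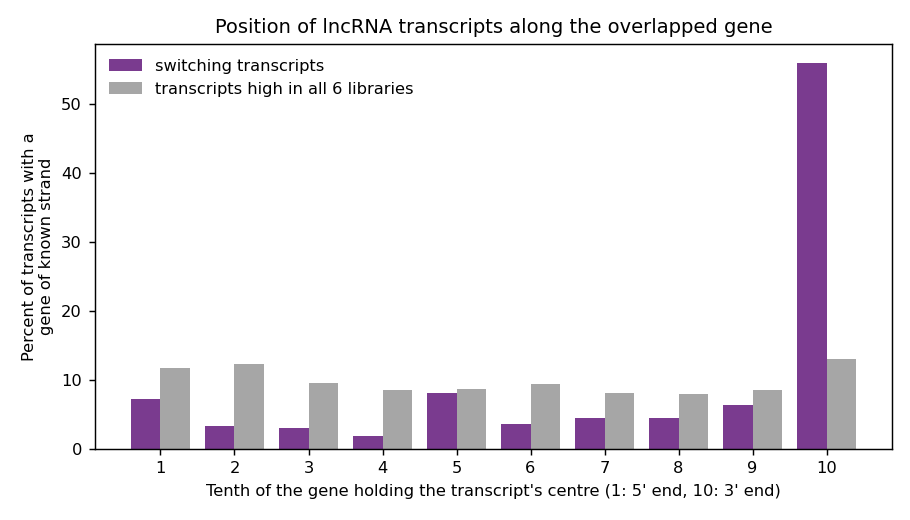
Position along the gene of the centre of each lncRNA transcript, in 10 equal steps from the 5′ end (1) to the 3′ end (10) on the x axis, as percent (y) of transcripts whose gene has a known strand: 334 switching transcripts (purple) and 4879 transcripts high in all 6 libraries (grey). The last step holds 56.0% of the switching transcripts and 13.0% of the others. Among the switching transcripts it holds 71.0% of the unspliced and 7.59% of the spliced ones.

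The rule chose the switching transcripts by their wide spread over the libraries, so gene rows steadier than the transcripts were largely built in. Nothing is read from that contrast. Over the 437 with a gene row above 0 in every library, the ratio of the highest to the lowest library of the gene row had a median of 1.59 (quartiles 1.34 and 2.21), and it was under 2 for 297 of the 443 (67.0%). For the 6352 steady transcripts the median was 1.46, and 83.3% had a gene row under 2. Gene rows were thus less steady around the switching transcripts than around the steady ones. In 406 cases the gene row was at least as large as the transcript in every library. The main gene was protein-coding for 344 (77.7%), against 92.0% of the steady set, and a lncRNA gene for 68.

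Some gene rows varied as widely as the transcripts. Among the 437 without a 0, the highest library was at least 20 times the lowest for 6 switching transcripts: those in Gm20634, Gm4673, Gm42890, Gm20488, Gm28373 and the Chaer1 gene, which are named here after their values were seen. Gm4673 (ENSMUST00000181395) was on in TAC 1 and TAC 3, with a gene row of 257, 12.7 and 179.6 under the label TAC and 11.3, 9.75 and 12.2 under Sham. Gm28373 (ENSMUST00000178129), which spans miR-1936, was off only in Sham 2, with a gene row of 32.7, 40.3 and 52.7 under the label TAC and 40.2, 0.7501 and 40.4 under Sham. The 6 gene rows with a 0 have no such ratio. Of these, also named after their values were seen, C330011M18Rik, whose gene row is the count of ENSMUST00000071067, read 47.6, 64.7 and 0 under the label TAC and 61.9, 35.3 and 61.2 under Sham, off in TAC 3 alone. Gm28979 (NONMMUT070709.2) read 28.8, 65.8 and 9.68 under the label TAC and 13.4, 0 and 4.898 under Sham, and the rest held at most 1.06 in any library. Transcript and gene row are the same count in Gm28373 and in Gm20488 too. Of the 53 switching transcripts that the table assigns to a gene with a row of its own, 22 had a gene row varying less than 2-fold and 5 at least 20-fold, while that of C330011M18Rik went to 0.

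Exact zeros were counted separately for spliced and unspliced transcripts, as a description without a test. Of the 120 spliced ones, 94 had at least 1 library at exactly 0, while 20 of the 323 unspliced ones did. The median maximum was 78.0 for the spliced and 234.5 for the unspliced transcripts. The low limit, 1/20 of the maximum, is therefore lower for the spliced ones, and its part in the zeros was not tested. Another row of the lncRNA table overlapped 105 of the spliced and 126 of the unspliced transcripts, 231 in all (52.1%), against 25.5% of the steady set. Spliced transcripts lay in a protein-coding gene in 39.2% of cases and unspliced ones in 92.0%.

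There were 24 pairs in which 2 switching transcripts overlap each other. In 10 pairs the states were opposite in all 6 libraries, in 5 they were the same, and in 9 they were mixed. Fndc3b, a fibronectin type III domain gene, holds a pair of assembled transcripts, MSTRG.22352.1 and MSTRG.22352.2, whose bounds are nearly the same, at chr3:27695141-27710240 and chr3:27695162-27710209. The first read 0.991, 1005 and 1123 under the label TAC and 888, 368 and 534 under Sham and the second 959.7, 0 and 0 under the label TAC and 0, 713 and 789 under Sham. TAC 1 had nearly all of its count in the second, TAC 2, TAC 3 and Sham 1 in the first, and Sham 2 and Sham 3 in both, while the sum ranged only from 888 to 1322.

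Pkp4, which encodes a plakophilin of cell junctions, gave the same kind of exchange between unspliced transcripts that share 2635 bases. NONMMUT037421.2 read 217, 224 and 338 under the label TAC and 263, 238 and 11.02 under Sham, and NONMMUT037422.2 read 0.991, 1.06 and 1.08 under the label TAC and 1.03, 0.7501 and 252 under Sham. Sham 3 was the 1 library that held the second form, and the sum varied 1.55-fold. For Gm43672 the pair ENSMUST00000199072 and NONMMUT042251.2, whose starts are 1 base apart, read 0, 609 and 499 under the label TAC and 0, 218 and 0 under Sham for the first and 415, 1.06 and 1.08 under the label TAC and 398, 0.7501 and 397 under Sham for the second. In every library 1 of the pair was at 1.08 or less, and the gene row equalled their sum to within 1 raw count.

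In Gm22, ENSMUST00000055537 and ENSMUST00000187142 have the same first base and end 4 bases apart, and the count moved to the longer one in Sham 1 and Sham 3, with a sum of 68.98 to 134. At A630052C17Rik the count lay in ENSMUST00000129876 in 5 libraries and in NONMMUT085003.1 in TAC 3, with a sum of 44.6 to 59.997. The 3 opposite pairs whose sum varied less than 2-fold were those of Pkp4, Gm22 and A630052C17Rik. Gm37494 showed an exchange over more rows: ENSMUST00000188038, of 16021 bases, read 1222, 1152 and 0 under the label TAC and 0, 988 and 0 under Sham, while its sum with the 10 other rows that overlap it stayed at 1523 to 1799. Over all switching transcripts, 53 had a sum with the overlapping rows that varied less than 2-fold.

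**Figure D3:**
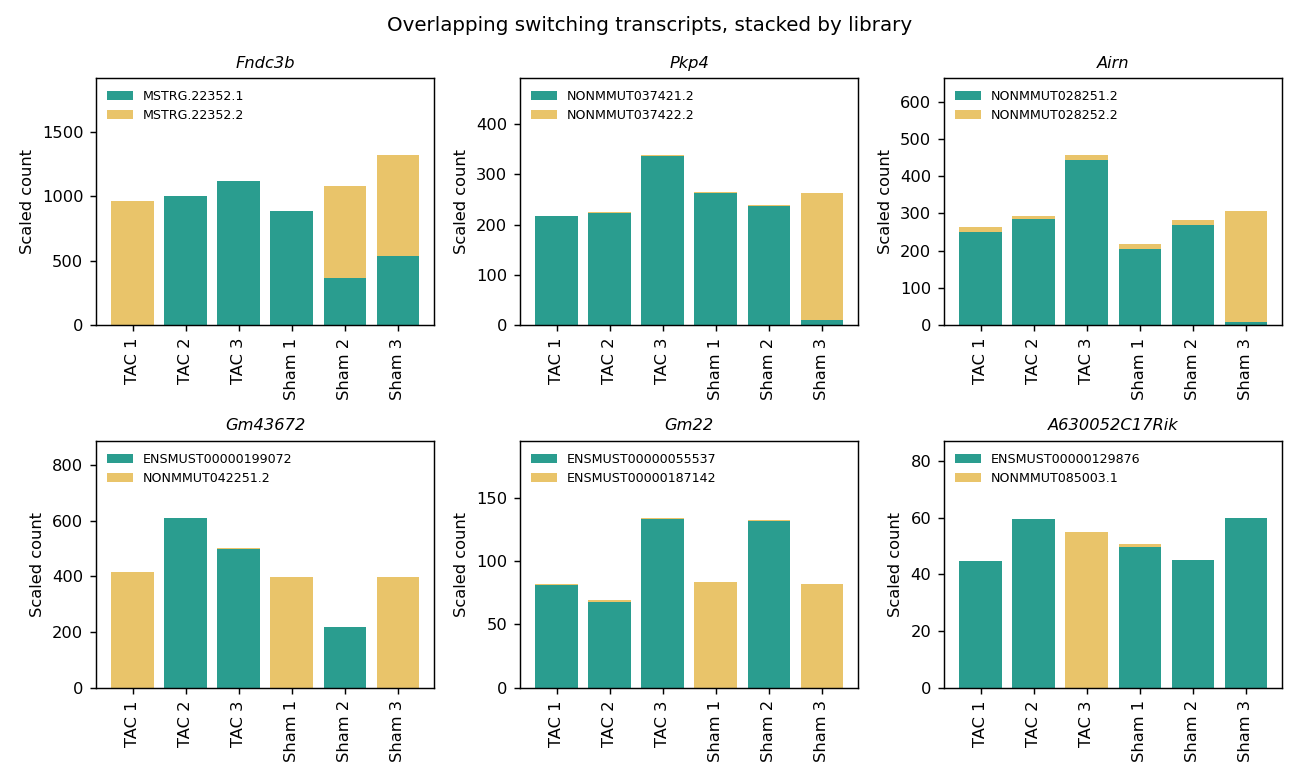
Scaled counts (y) of 6 pairs of overlapping switching transcripts in the 6 libraries (x), stacked so that the bar height is the sum of the pair. In Pkp4, Airn, Gm43672, Gm22 and A630052C17Rik each bar is nearly all 1 colour, and the colour changes between libraries; in Fndc3b Sham 2 and Sham 3 hold both colours.

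Airn, the imprinted antisense RNA that silences Igf2r, held 4 switching transcripts, more than any other gene. NONMMUT028251.2 and NONMMUT028252.2 share 1850 bases of the gene. The first read 249, 284 and 443 under the label TAC and 205, 269 and 8.57 under Sham, and the second 13.9, 7.43 and 13.98 under the label TAC and 11.3, 12.8 and 299 under Sham. Sham 3 had exchanged them. Further along, NONMMUT028254.2 was low only in Sham 2, at 32.3 against at least 409, and the spliced ENSMUST00000161890 was high only there, at 84.0. The Airn gene row read 515, 560.3 and 686 under the label TAC and 402, 556 and 493 under Sham, a 1.71-fold range. NONMMUT028254.2 alone exceeded it in every library but TAC 2 and Sham 2, by most in Sham 3 (559.6 against 493). The gene row therefore does not hold all counts of these transcripts, and its range is no measure of them.

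Jpx also held a pair with opposite states, at the start shown above. ENSMUST00000181020 read 86.3, 0 and 90.3 under the label TAC and 36.1, 60.01 and 0 under Sham, and NONMMUT136296.1, which ends far later but is the shorter RNA (3417 against 3802 bases), read 0, 12.7 and 1.08 under the label TAC and 0, 0 and 53.9 under Sham. TAC 2 and Sham 3 held mainly the transcript with the later end and the other libraries the one with the earlier end, at counts of 12.7 to 90.3. The sum of the pair was not steady: it ranged from 12.7 in TAC 2 to 91.4 in TAC 3, 7.18-fold. The Jpx gene row varied 1.85-fold and held 122 in TAC 2. Ftx, the neighbouring lncRNA of the X-inactivation centre, had the transcript NONMMUT137220.1 at 0 in TAC 2, at 0.750 in Sham 2 and at 40.6 to 83.3 elsewhere.

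The known lncRNA genes on the list of 41 were overlapped by switching transcripts in 10 cases. Chaer1 hosted NONMMUT052871.2, at chr5:77134454-77140300, with its end 5 bases from the start in the promoter printed above. It read 208, 258 and 231 under the label TAC and 188, 9.75 and 58.8 under Sham, low in Sham 2 alone. Its gene row was smaller than the transcript, at 28.8, 12.7 and 20.4 under the label TAC and 16.5, 0.7501 and 8.57 under Sham, and was lowest in the same library. Across the Kcnq1ot1 start, NONMMUT064312.2 read 163, 4.24 and 356 under the label TAC and 1.03, 177 and 236 under Sham, low in TAC 2 and Sham 1, where ENSMUST00000185789 was highest. Meg3, an imprinted RNA made from the maternal chromosome, had NONMMUT015695.2 at 54.8 in TAC 3 and at 0 in the other libraries. For Snhg14, a host of small nucleolar RNAs, NONMMUT061684.2 was at 113 in Sham 1 and at 0 elsewhere. The gene rows of Meg3 and Snhg14 varied 1.83-fold and 2.30-fold.

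For 13 transcripts (2.93%) the states followed the labels. They are among the 75 transcripts that were high in 3 libraries, and all 62 mixed patterns occurred. Whether 13 exceeds the number that would match the labels by coincidence was not tested. High in all 3 libraries labelled TAC and low in all labelled Sham were 5, in Wdfy3, Fbxl22, Tfam, Zfp799 and Cyld. The opposite held for 8, in Phactr4, Cacul1, Xpot, Ovca2, Poldip3, Mga, Kif1bp and Ddr2, the last pair named after their values were seen. Cacul1, which encodes a cullin-associated protein, held NONMMUT035305.2 of the second kind, 35 bases from the 3′ end of the gene, at 2.97, 4.24 and 3.23 under the label TAC and 438, 415 and 525 under Sham. The Cacul1 gene row read 1129, 1052 and 1095 under the label TAC and 1140.0, 1155 and 1279.5 under Sham. For Phactr4, a regulator of protein phosphatase 1 and actin, NONMMUT049857.2 read 4.96, 5.31 and 6.45 under the label TAC and 406, 537 and 476 under Sham, and its gene row 909, 931 and 679.7 under the label TAC and 944, 1265 and 1117 under Sham. In both genes every transcript value under the label Sham was at least 406 and every one under TAC at most 6.45. The gene rows were also lower in all 3 libraries labelled TAC, by a margin that did not pass the test (adjusted p = 0.768 for Cacul1 and 0.310 for Phactr4, edgeR).

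Of the first kind, NONMMUT053361.2 in Wdfy3, an adaptor of autophagy, read 357, 426 and 367 under the label TAC and 1.03, 0.7501 and 1.22 under Sham. Its 3 low values are 1 raw count each. The Wdfy3 gene row was 3481 to 4139 and was lower in all 3 libraries labelled TAC, short of the threshold (log2 difference -0.10 ± 0.09 SE, adjusted p = 0.585, edgeR). Tfam, which packages and transcribes mitochondrial DNA, held the 1 spliced transcript of the 13, NONMMUT006148.2, at 330.1, 337 and 239 under the label TAC and 1.03, 0.7501 and 1.22 under Sham. Its gene row ran from 581 to 928 and overlapped between the labels. The transcript in Fbxl22, a muscle F-box gene, read 265, 157 and 384 under the label TAC and 9.28, 4.501 and 9.795 under Sham, and here the gene row read 686, 433 and 739.9 under the label TAC and 381, 182 and 327 under Sham. That gene row was higher in all 3 libraries labelled TAC and missed the threshold (log2 difference 1.14 ± 0.30 SE, adjusted p = 0.101, edgeR).

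Zfp799, a zinc finger gene, was the 1 gene of the 13 whose own row passed the test. NONMMUT029155.2, 6 bases from its 3′ end, read 266, 288 and 332 under the label TAC and 5.16, 3.0005 and 8.57 under Sham, and the gene row read 513, 558 and 579.7 under the label TAC and 359, 323 and 333 under Sham (log2 difference 0.76 ± 0.11 SE, adjusted p = 0.0329, edgeR). With the transcript subtracted, the Zfp799 gene row was lower in every library labelled TAC than in any labelled Sham. The part of the transcript's own counts in this call was not tested. For the other genes of the second kind the adjusted p of the gene row was 0.244 for Xpot, 0.366 for Mga, 0.446 for Ddr2, 0.699 for Ovca2, 0.769 for Poldip3 and 0.937 for Kif1bp (edgeR).

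**Figure D4:**
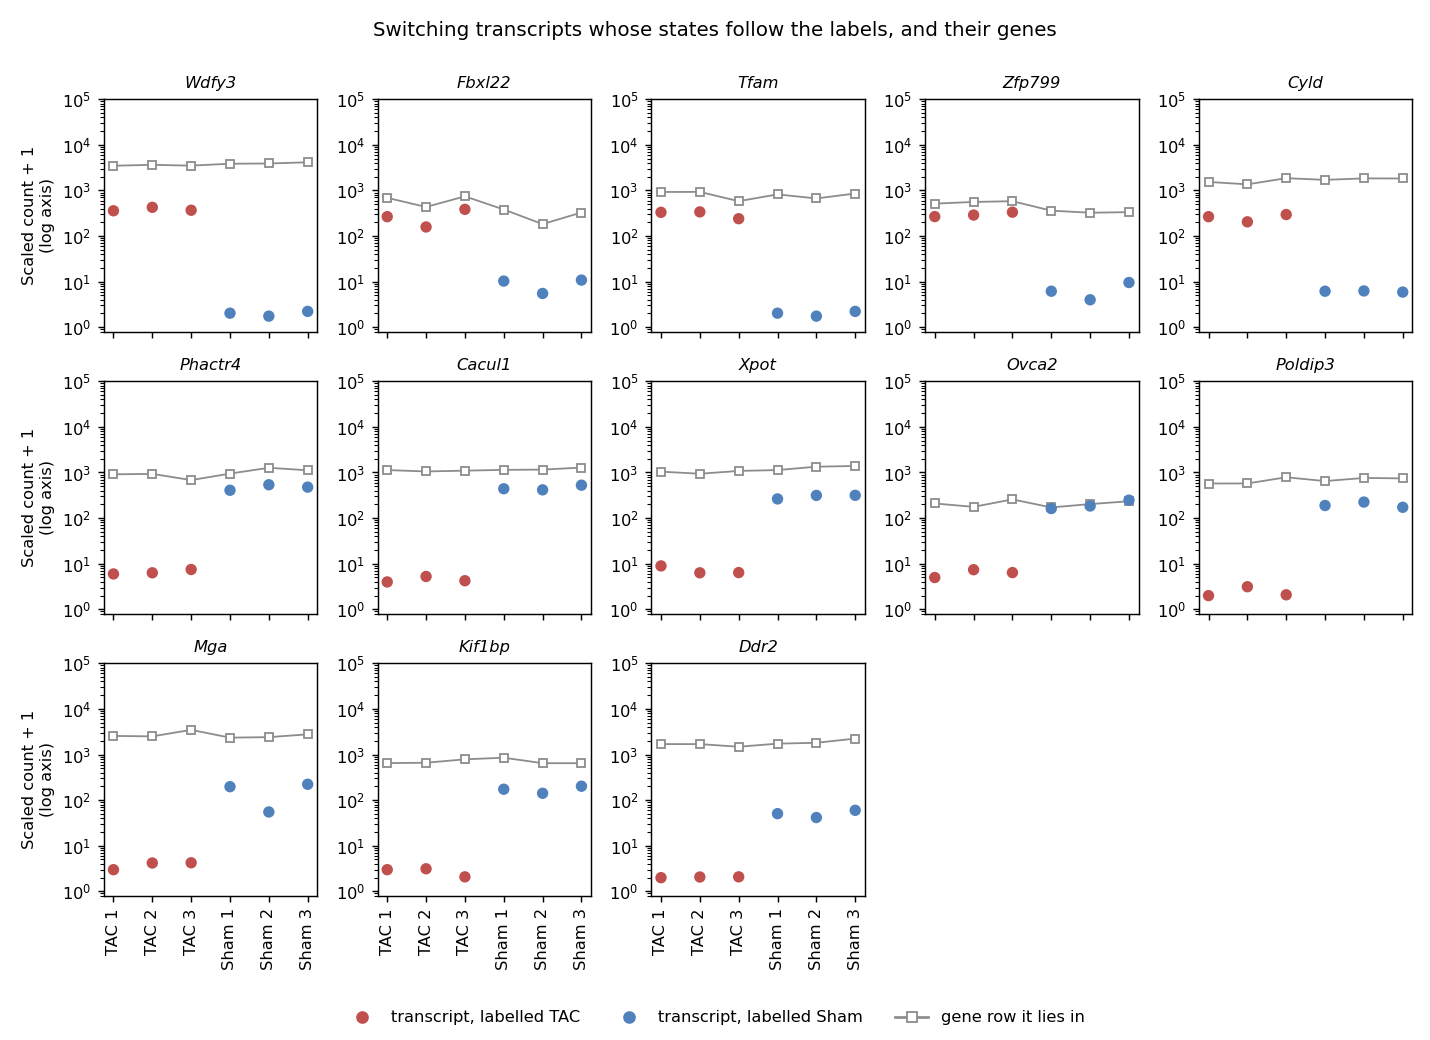
The 13 switching transcripts whose states follow the labels; each panel gives the scaled count plus 1 on a log axis (y) for the 6 libraries (x), with the transcript as filled points coloured by label and its gene as open squares joined by a grey line to guide the eye. The upper row holds the 5 transcripts that were high in the libraries labelled TAC, the lower rows the 8 that were high in those labelled Sham, and the gene squares stay at 175 or more in all panels.

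Over the whole lncRNA table edgeR called 17 of 16035 transcripts between the labels (0.106%), and 13 of the 329 switching transcripts tested were called, 5 higher with TAC and 8 with Sham. These are exactly the 13 whose states follow the labels. Since the rule picked transcripts by large spread in the same counts, nothing is read from that share. The other 114 were left out by the filter, which asks for enough counts in several libraries, and have no test. A transcript with high counts in few libraries could be left out, as was the one in Ptrf. The tested set thus depended in part on the states themselves. The labelled groups did not overlap in 64 of the 329, against 21.5% of all transcripts tested. Without TAC 2 or TAC 3 the number called among the switching transcripts was 23 or 21.

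The rule did not use the gene rows one by one, beyond leaving out the 200 genes of highest FPKM. A gene row can still hold the counts of its switching transcript, as for Gm28373 and Mir17hg, so it is not always a separate measure. Of 405 main genes tested, 4 passed the threshold (1.43% of all 15198 genes did), and the groups did not overlap in 118 (27.2% of all genes tested). Beside Zfp799 these were Thsd7a, a thrombospondin domain gene, Bicc1, an RNA-binding protein gene, and Scara3, a scavenger receptor gene, all lower with the label TAC. Bicc1 counts were 846, 803 and 757 under the label TAC and 1336, 1431 and 1453 under Sham, with no overlap (log2 difference -0.75 ± 0.10 SE, adjusted p = 0.0285, edgeR). The switching transcript in Bicc1, NONMMUT006134.2, was low in TAC 3 alone, at 96.2, 88.1 and 2.15 under the label TAC and 144, 146 and 142 under Sham. Thsd7a and Scara3 had log2 differences of -0.94 ± 0.16 SE (adjusted p = 0.0458) and -1.41 ± 0.21 SE (adjusted p = 0.0321, both edgeR). The median log2 difference of the 405 was 0.03, beside 0.01 over all genes. DESeq2 called 38 of them, and leaving out 1 library gave 0 without TAC 1, Sham 2 or Sham 3, 1 without TAC 2 or TAC 3, and 14 without Sham 1. The summed FPKM of 10 fibroblast markers, none of them at 0, was 399 to 515 with the label TAC and 661 to 795 with Sham, and 1 passed the test (Col1a2, log2 difference -1.47 ± 0.26 SE, adjusted p = 0.0459, edgeR). The sum of 10 macrophage markers was 93.3 to 165 with the label TAC and 216 to 228 with Sham, and edgeR called 0 of them (7 at an unadjusted p under 0.05, and DESeq2 called 2). The part of these cells in the 4 calls was not tested. In bulk tissue, fewer cells of a type and less RNA per cell cannot be told apart.

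Genes of heart and RNA biology were among those that held a switching transcript. Celf1, a regulator of splicing in heart muscle, had NONMMUT038428.2, 206 bases from its 3′ end, at 0.991, 995 and 875 under the label TAC and 912, 909.9 and 1044 under Sham. That is 1 raw count in TAC 1 and about the same high level in the other 5, while the Celf1 gene row was 3106 to 3501, a 1.13-fold range. In Hnrnpu, another RNA-binding protein gene, NONMMUT003966.2 was high in TAC 1 alone (52.5) and at 0 elsewhere.

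Col1a1, the main fibrillar collagen chain, held NONMMUT011619.2, on in TAC 2 and Sham 3, at 1.98, 193 and 1.08 under the label TAC and 2.06, 1.5002 and 429.8 under Sham. The Col1a1 gene row read 2445, 3017 and 1395 under the label TAC and 4595, 8345 and 6305 under Sham, with the labelled groups apart but short of the threshold (log2 difference -1.42 ± 0.32 SE, adjusted p = 0.0711, edgeR), so transcript and gene were ordered differently. Erbb4, the neuregulin receptor, had NONMMUT001390.2 at 0 in Sham 2 and 30.1 to 81.7 elsewhere. Smad7, an inhibitor of TGF-beta signalling, had NONMMUT033087.2 on in TAC 2, Sham 1 and Sham 2, at 171 to 278, and Csf1r, the macrophage growth factor receptor, had NONMMUT032562.2 on in TAC 1 alone, at 80.3. Gm17276 at the Notch3 locus held a pair, of which NONMMUT029120.2 was on in Sham 1 and Sham 3, at 111 and 79.6, and at 0 elsewhere.

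Genes whose products splice or degrade RNA held no edgeR call, a share near the 1.43% of all genes called. Of 45 splicing factors edgeR called 0, with 7 at an unadjusted p under 0.05 and a median log2 difference of 0.12, and DESeq2 called 2. Of 23 genes of nonsense-mediated and nuclear RNA decay edgeR called 0, with 1 at an unadjusted p under 0.05 and a median of 0.06, and DESeq2 called 0. The median over all genes was 0.01. Known lncRNA genes gave 1 call of 32 tested, Dnm3os, a host of miRNAs in fibroblasts (log2 difference -1.25 ± 0.23 SE, adjusted p = 0.0480, edgeR), and DESeq2 called 7. By comparison 8 of 28 matrix and TGF-beta genes were called by edgeR and 19 by DESeq2, those of edgeR all lower with the label TAC, including Thbs4, a matricellular thrombospondin, and Ltbp2, a latent TGF-beta binding protein (log2 differences -4.63 ± 0.32 SE and -4.23 ± 0.37 SE, adjusted p = 0.00792 and 0.0114, edgeR). The fibroblast and macrophage sums given above were lower with TAC as well, and their part in these calls was not tested. The hypertrophy list gave 4 of 9 (5 by DESeq2), among them Acta1, the skeletal actin of the stressed heart, again lower with TAC (log2 difference -3.23 ± 0.56 SE, adjusted p = 0.0448, edgeR). These gene calls moved with single libraries: edgeR called 0 genes of the table without TAC 1 (2564 at an unadjusted p under 0.05), 10 to 40 without TAC 2, TAC 3, Sham 2 or Sham 3, and 397 without Sham 1, beside 217 with all 6.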

How the data were processed

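Per the file headers, 2 deposited tables give each library's count and FPKM for 34745 genes and 43234 lncRNA transcripts, with a locus, and for lncRNAs a length in bases. The authors' counts are whole numbers. The FPKM values deposited by the authors divide the counts by length and library total. The build GRCm38 (mm10) and the tools HISAT2 2.0.4 and StringTie 1.3.0 are named, without roles, in the submitters' processing notes. The counting program and its strand setting, the annotation and the transcripts' exons were not given in the sources used here. No value column lacked a library.

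Counts were scaled by the gene-table library total to the mean total, and the selection rule was applied as stated in the report. Transcript coordinates were taken from the deposited tables. The main gene of a transcript is the one that shares the most bases. Strand and gene type were matched by symbol and chromosome in RefSeq (GRCm38.p6), the source also of promoter and miRNA sequences. Overlap needed 1 shared base, on either strand.

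Genes and lncRNA transcripts were each tested between the labels with the edgeR 4.0.16 quasi-likelihood test in R 4.3.3 (TMM scaling, a filterByExpr minimum of 10 counts, without a block, Benjamini-Hochberg adjustment over the whole table, adjusted p under 0.05). The library size for lncRNAs was the total behind their FPKM values, 1.02 times the gene total in every library. SEs were derived from the log2 difference and the test's F statistic. Alternatives were DESeq2 1.42.0, limma 3.58.1 on log2(FPKM + 0.1), other scalings, no filter, a replicate block and each library left out. Selection and test were checked on simulated data, in which the lncRNA test found few of the planted 4-fold changes.

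The transcripts and the 17 gene lists were chosen with earlier results of these data known. Of 322 listed symbols, 315 were found by symbol, 3 by gene ID and 4 were not matched. Transcripts were named by rule: the 12 of highest count, up to 6 per direction that follow the labels, up to 4 per gene list, the loci with the most members, and those next to each limit. Other transcripts and genes were chosen after their values were seen. Among them were the overlapping pairs outside Airn, the transcripts in Jpx, Ftx, Chaer1, Meg3 and Snhg14, and those that span miRNAs. Results for a few genes are not reported here.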

Additional observations from a re-analysis of the deposited data

How the results depend on the processing

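The number of switching transcripts was 753 with a maximum of 20 or more, 289 with 100 or more and 270 with low below 1/50 of the maximum. The other 8 settings of the rule gave 378 to 638, and leaving out 1 library gave 398 to 423, of which 370 to 403 were among the 443. Overlap on the same strand was not run because the deposited lncRNA rows give no strand.

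Of all lncRNA transcripts, 17 were called by edgeR, 224 by DESeq2 and 26 by limma, and 18 to 31 with 1 library left out. Of all genes, 217 were called by edgeR, 1195 by DESeq2, 338 without TMM and 432 without the filter, and 0 (2564 at an unadjusted p under 0.05, without TAC 1) to 397 (without Sham 1) with 1 library left out. The split of the gene calls moved with the scaling: 49 higher and 168 lower with the label TAC under TMM, 42 and 296 without it. Switching transcripts called numbered 13, and 13 to 23 with 1 library left out. Main genes called numbered 4, and 38 by DESeq2, 12 without the filter and 0 to 14 with 1 library left out. The cause of these shifts was not tested. Over single transcripts and genes named, 40 values lost the threshold, 6 gained it and 567 were counted as unchanged. None that passed in the main test changed direction. For those that did not pass, a change of direction was not counted separately and may be among the 567.

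Libraries with the same replicate number did not deviate together: the correlations of their deviations were -0.14, -0.12 and -0.10 over genes and -0.04, -0.07 and -0.01 over lncRNAs, and no library correlated best with its own number. A replicate block gave 11 lncRNA transcripts, 41 genes, 11 switching transcripts and 0 main genes (70 at an unadjusted p under 0.05).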
